A study of Mus musculus with 7 samples.

Results

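ERβ sites of mouse ovary chromatin that hold an AP-1 motif were examined. Activator protein 1 (AP-1) is a dimer of Jun and Fos family proteins that binds the 7-base word TGACTCA, which reads TGAGTCA on the other strand. Sites were maxima of ERβ chromatin immunoprecipitation sequencing (ChIP-seq) signal, and the members were chosen by an exact AP-1 match in the 200 bp around the site centre. Of 4253 sites present in at least 2 of 3 ChIP replicates, 286 held a match, which was 6.72% of sites (6.75 ± 0.068% over the 3 replicates, SD). ChIP replicates 1, 2 and 3 called 227, 278 and 267 of the 286. Another 143 sites with a match were called in only 1 replicate and were left out.

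The study profiled ovaries of C57BL/6J mice that endogenously express ERβ, with the monoclonal antibody PPZ0506, and each replicate was made from pooled ovaries. The groups used here were 3 ERβ ChIP replicates and 2 inputs, which are sheared chromatin of the same tissue sequenced without the antibody step. The labels name no hormone treatment, and per the study's methods the mice ranged in age from juvenile to adult. The intact ovary holds granulosa, theca, luteal and stromal cells, so the signal is a mean over cell types. The 2 ChIP samples from ovaries with deleted ERβ were not analysed here. The tracks carried normalised signal with genome means from 0.362 to 0.370, and depth is unknown from them, so the spread between replicates sets the precision.

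As background, estrogen receptors bind DNA directly at estrogen response elements (EREs), a pair of inverted half-sites GGTCA and TGACC separated by 3 bases. They are also known to reach DNA indirectly, through contact with AP-1 already bound to its own word, which is called tethering. A receptor held at an ERE and one held at AP-1 could place the ChIP maximum over different letters where the motifs lie apart. The distance of each motif from the maximum, called the summit, was therefore compared. How the receptor was held at a site was not tested. In the text, an ERE is a match with at most 2 mismatches in the 10 fixed bases, and the best ERE of a site is the match with the fewest mismatches. The half-site TGACC and the AP-1 word TGACTCA share their first 4 letters, so that both motifs can lie on the same bases.

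The first set of sequences shows 4 of the strongest members that hold an AP-1 match apart from a good ERE (1 mismatch). They were the highest by mean fold over input among members called in all 3 replicates. In the mm10 sequence below, 5′ to 3′, the AP-1 match and both half-sites of the best ERE are in capitals.
Pomt1, chr2:32246985-32247037, + strand: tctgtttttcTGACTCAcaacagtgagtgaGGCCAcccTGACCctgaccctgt
Peli2, chr14:48162581-48162676, + strand: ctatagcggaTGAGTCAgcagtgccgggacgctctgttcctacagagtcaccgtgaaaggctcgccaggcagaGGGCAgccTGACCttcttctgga
Greb1, chr12:16790600-16790700, + strand: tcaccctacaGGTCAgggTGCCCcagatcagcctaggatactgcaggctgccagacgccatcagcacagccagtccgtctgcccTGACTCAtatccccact
Ptpn5, chr7:47109026-47109119, + strand: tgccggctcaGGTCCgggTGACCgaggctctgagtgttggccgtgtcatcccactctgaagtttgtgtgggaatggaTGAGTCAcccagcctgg

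In each of these 4 the ERE lay nearer the site centre than the AP-1 match did. At Pomt1, which encodes a protein O-mannosyltransferase, the site (chr2:32246931-32247130) fell in the promoter of a transcript of the gene. It lay 9.69 kb downstream of the nearest protein-coding start. Its 200-bp signal was 24.4, 31.9 and 27.1 in ChIP replicates 1, 2 and 3 and 0.726 and 0.953 in the inputs. All ChIP values stood far above both inputs, which the site rule required, and the mean fold over input was 33.1 ± 4.58 (SD, n = 3). The ERE centre was 9.5 bp and the AP-1 centre 32.5 bp from the site centre.

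At Peli2, an E3 ubiquitin ligase of the Pellino family, the site (chr14:48162541-48162740) lay in intron 1 of 5 of a longer transcript, 5.63 kb upstream of the nearest protein-coding start. The signal was 24.1, 30.3 and 28.4 in ChIP replicates 1, 2 and 3 and 1.06 and 0.614 in the inputs, and the fold was 33.1 ± 3.79. The ERE was 19.5 bp and the AP-1 match 46.5 bp from the centre. The site in intron 1 of 34 of Greb1 (chr12:16790511-16790710), a gene induced by estrogen receptors in breast cancer cells, lay 10.1 kb downstream of the nearest protein-coding start. Per the study, Greb1 RNA was higher in ovaries without ERβ. The signal at the site was 14.9, 19.99 and 19.2 in ChIP replicates 1, 2 and 3 and 0.639 and 0.530 in the inputs, and the fold was 30.9 ± 4.65. There the ERE was 5.5 bp and the AP-1 match 76.5 bp from the centre, near the edge of the window.

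The site in intron 2 of 13 of Ptpn5 (chr7:47108944-47109143), a protein tyrosine phosphatase gene, had signal of 15.1, 22.6 and 25.6 in ChIP replicates 1, 2 and 3 and 1.05 and 0.360 in the inputs. Its fold was 30.02 ± 7.68, with the ERE 1.5 bp and the AP-1 match 62.5 bp from the centre. Input replicate 1 was higher than Input replicate 2 there. A further site with a good ERE apart from AP-1, near the gene model Gm49425 (chr15:101507224-101507423), had a fold of 24.6 ± 4.85, with the ERE 8.5 bp and the AP-1 match 47.5 bp from the centre. The next members called in all 3 replicates were an intergenic site near the elastase gene Cela3a (chr4:137396851-137397050) with a fold of 28.5 ± 2.47, and intron 1 of 3 of Chst8 (chr7:34806374-34806573) with 26.6 ± 6.30. Chst8 encodes a sulfotransferase that acts on pituitary glycoprotein hormones. They were followed by the site near Limk2, a kinase of the actin regulator cofilin, at the transcript end of Rnf185 (chr11:3417174-3417373), with 24.8 ± 3.96. The last of the 8 was intron 1 of 13 of Crtc1 (chr8:70418868-70419067), a coactivator of CREB, with 24.7 ± 0.459.

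The match at Cela3a lay 2.5 bp from the centre and its ERE, with 2 mismatches, 26.5 bp. It was the single site of the 8 whose AP-1 match was the nearer motif. Chst8, Limk2 and Crtc1 had the ERE at 0.5, 8.5 and 16.5 bp and the AP-1 match at 86.5, 38.5 and 60.5 bp. All 8 held an ERE, with 1 mismatch in 4 of them and 2 mismatches in the others.

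To ask which motif sat under the summit, distances were measured from the summit of each replicate's own maximum in the 202 members that held both motifs. The median AP-1 distance was 44.0, 40 and 41.5 bp in ChIP replicates 1, 2 and 3 (n = 158, 198 and 189 sites). The median ERE distance was 20.5, 16.5 and 18.5 bp in the same sites. The ERE was thus nearer by 23.5, 23.5 and 23.0 bp, a mean difference of 23.3 ± 0.29 bp (SD, n = 3). Every replicate showed the same direction, and the exact paired permutation test gave a two-sided p = 0.25, which is the smallest p that 3 replicates allow. The replicates share most of their sites, so the SD covers the spread between libraries and not that between sites. The SD is also not the precision of a summit. Summits of the same member lay a median of 30 bp apart between replicates, with 220 bp the largest spread over all members.

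Site by site, the ERE was the nearer motif in 127 of 158, 147 of 198 and 145 of 189 members, or 77.1 ± 3.1% over the replicates. The AP-1 match was nearer in 30, 50 and 42 members. The names of the tracks fall into 2 sets, ChIP replicate 1 with Input replicate 1 and ChIP replicates 2 and 3 with Input replicate 2. The difference was 23.5 bp in the first set and 23.25 bp in the second.

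**Figure D1:**
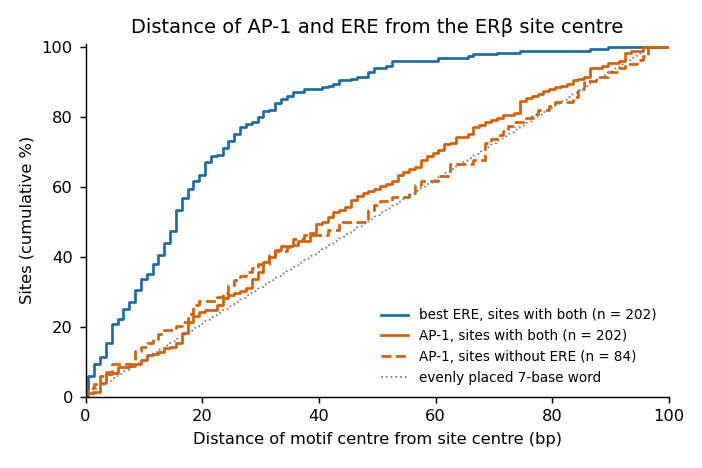
Cumulative percentage of member sites (vertical axis) by distance in bp of the motif centre from the site centre (horizontal axis), for the best ERE and for AP-1 in the 202 members with both and for AP-1 in the 84 members without an ERE. The ERE curve rises early, with 73.3% within 25 bp, whereas both AP-1 curves run near the dotted line of a 7-base word placed evenly over the window. AP-1 matches present by chance are included and were not told apart.

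Measured from the merged site centre, the AP-1 match of the 202 members lay at a median of 41.0 bp and the ERE at 15.5 bp. Within 25 bp of the centre were 59 AP-1 matches and 148 EREs, and the outermost ring, over 75 bp away, held 31 AP-1 matches and 2 EREs. A 7-base word placed evenly over all 194 positions of the window has a median distance of 48.5 bp and lies within 25 bp in 25.8% of cases. Over all 286 members the AP-1 match was within 25 bp in 30.1%, with 86, 80, 71 and 49 matches in successive 25-bp rings outward. The positions in the outermost ring are fewer, because a match had to end inside the window. The central counts include matches that share letters with an ERE. In the 166 members with both motifs and no overlap, the AP-1 match lay at a median of 45.5 bp and within 25 bp in 23.5%.

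The 84 members without an ERE were examined separately. Their AP-1 match lay at a median of 46.0 bp from the site centre, and at 35.5, 49.0 and 49.5 bp from the summits of replicates 1, 2 and 3 (44.7 ± 7.9 bp, n = 3). Replicate 1 was lower than the other replicates, with 37.7% of matches within 25 bp against 25% and 32.1%. In 3967 sites without AP-1, the best ERE of the 2743 sites that held one was at 20, 18.5 and 18.5 bp, close to the values in the members. The best partial element of the 84 members, with 3 or 4 mismatches, has no usable position. Its median was 23.5, 21.5 and 19.0 bp when ties went to the nearest element and 51.5, 51.5 and 50.5 bp when they went to the farthest.

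Where AP-1 and ERE centres were at least 40 bp apart, in 99 members, the summit was located on the line from AP-1 (position 0) to ERE (position 1). Its median position was 0.87, 0.89 and 0.85 in replicates 1, 2 and 3. The summit was on the ERE side of the midpoint in 69 of 80, 76 of 96 and 76 of 88 members, or 83.9 ± 4.1%. The mean signal profile of the 137 members with the motifs at least 20 bp apart gave the same order. In the 20 bp at the AP-1 centre it was 5.11, 6.59 and 6.52 in ChIP replicates 1, 2 and 3, and at the ERE centre 5.85, 7.57 and 7.60. The AP-1 height was 86.7 ± 0.88% of the ERE height in the ChIP libraries. In the inputs the 2 positions differed little, with 0.670 and 0.570 at AP-1 and 0.663 and 0.562 at the ERE. The profile is wider than the spacing of the motifs, so heights at nearby positions are similar whichever position lies under the summit.

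**Figure D2:**
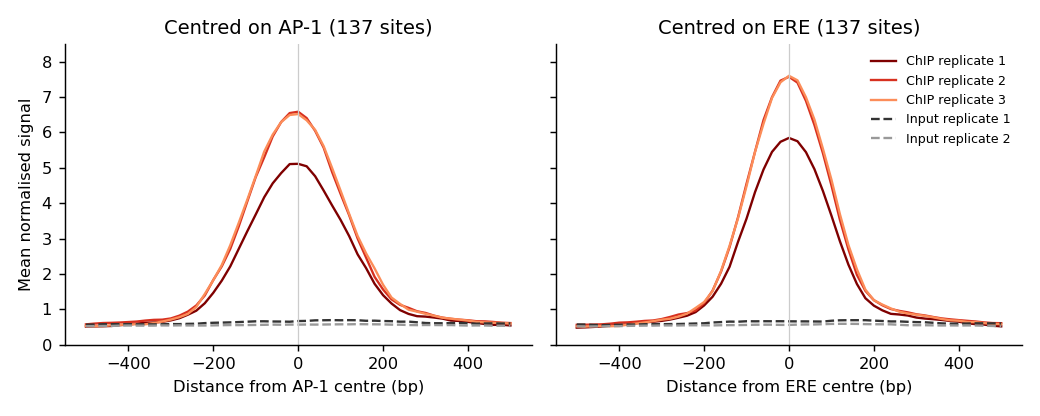
Mean normalised signal (vertical axis) by distance in bp from the AP-1 centre (left) and from the ERE centre (right) in the same 137 members, 1 line per library. The 3 ChIP lines peak higher over the ERE (5.85 to 7.60) than over AP-1 (5.11 to 6.59), and both inputs stay under 1.

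The motifs overlapped in 36 of 286 members (12.6%). In 29 of them the AP-1 centre lay exactly 5 bp from the centre of the best ERE, so that TGACTCA served as the second half-site, TGACC with its last letter changed. No other spacing was used by more than 9 members. The sequences of 6 such sites and of a near relation show the arrangement, read on the strand on which AP-1 follows the first half-site. Capitals mark half-sites and AP-1.
Thbs1, chr2:117749037-117749071, - strand: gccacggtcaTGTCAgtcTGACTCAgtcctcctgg
Ank2, chr3:127349173-127349207, - strand: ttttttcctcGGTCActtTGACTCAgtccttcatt
Trappc9, chr15:72814323-72814357, + strand: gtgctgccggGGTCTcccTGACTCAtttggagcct
Sptlc1, chr13:53346569-53346603, + strand: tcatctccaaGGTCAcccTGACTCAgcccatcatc
Myc, chr15:62714498-62714532, + strand: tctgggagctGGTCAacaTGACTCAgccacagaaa
Fosl2, chr5:32035747-32035781, + strand: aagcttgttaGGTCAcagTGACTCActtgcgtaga
Gadd45g, chr13:51868572-51868610, + strand: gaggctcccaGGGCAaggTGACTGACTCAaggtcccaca

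Of the 29, 18 had the full first half-site GGTCA and therefore 1 mismatch, and the other 11 had 2 mismatches. The 3 bases between the half-sites differed, with 23 different spacers among the 29. The shared element lay at a median of 15.5 bp from the site centre and within 25 bp in 23 of 29, and 21 of 29 were called in all 3 replicates. Mean folds ran from 3.68 to 18.1, with a median of 7.18. At these sites the distance cannot tell the motifs apart, since the letters are the same. Without overlapping matches, 252 members were left and the ERE was nearer than AP-1 by 27.5 ± 0.50 bp.

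The strongest composite lay in an intergenic region near Thbs1 (chr2:117748968-117749167), the gene of the matrix protein thrombospondin 1, at 363 kb from its start. Signal there was 9.85, 15.3 and 16.4 in ChIP replicates 1, 2 and 3 and 0.902 and 0.630 in the inputs, a fold of 18.1 ± 4.62. The Ank2 site (chr3:127349071-127349270) lay in intron 1 of 31 of the ankyrin B gene, with signal of 7.55, 11.8 and 13.2 in ChIP replicates 1, 2 and 3 and 0.683 and 0.533 in the inputs and a fold of 17.8 ± 4.85. The Trappc9 site (chr15:72814224-72814423, intron 16 of 21) had folds of 14.03, 19.3 and 10.1 in replicates 1, 2 and 3, and replicate 2 was the highest there. Gadd45g, a stress-response gene, had a site 21.9 kb downstream of its start (chr13:51868458-51868657) with folds of 14.6, 19.6 and 15.7. Its AP-1 and ERE centres were 9 bp apart. The Zbtb38 site (chr9:96783404-96783603), 30.7 kb upstream of this zinc finger gene, had the highest fold of all sites with an overlap, 23.96 ± 4.80. Its AP-1 match overlapped a weaker element, and its best ERE (1 mismatch) lay 42 bp away at 0.5 bp from the centre.

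The Sptlc1 site (chr13:53346488-53346687, intron 8 of 14) was the only member with 4 AP-1 matches, and it was singled out for that after its values were seen. Sptlc1 encodes a subunit of serine palmitoyltransferase, the first enzyme of sphingolipid synthesis. Folds were 9.16, 12.5 and 16.8 in replicates 1, 2 and 3. Among the other members, 274 had 1 match and 11 had 2.

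To see whether AP-1 letters changed how often an imperfect ERE was bound, all genome copies of GGTCA, 3 bases and TGACT were listed by their next 2 bases. With CA next, which completes AP-1, 21 of 411 copies (5.11%) lay inside a site. With any other next bases it was 106 of 5907 (1.79%). The share with CA was the second of the 16 pairs. CG (3 of 47), CC (12 of 295, 4.07%), TC (13 of 372, 3.49%) and CT (19 of 572, 3.32%) were near it, and AA, AG, AT and GT had 1 site each. The sites that entered these shares were also used to choose the members, and no test was made.

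The third set of sequences shows strong members with AP-1 within 25 bp of the centre and no ERE, the sites where AP-1 is the motif of the pair found near the maximum, and the site in Fshr. Capitals mark AP-1.
Perp, chr10:18845007-18845033, + strand: cggtgcgctcTGAGTCAccggaatcaa
Lonrf3, chrX:36359813-36359839, + strand: ttggctgttgTGACTCAagaagtcagc
Fshr, chr17:89144960-89144986, + strand: tgggagatgcTGACTCAaggccactca

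Perp, a p53-induced membrane protein gene, had the strongest of these (chr10:18844918-18845117), in its promoter, with the AP-1 match 2.5 bp from the centre. Signal was 8.88, 9.97 and 11.6 in ChIP replicates 1, 2 and 3 and 0.621 and 0.560 in the inputs, and the fold was 17.2 ± 2.34. Lonrf3 (intron 10 of 10, chrX:36359731-36359930) had folds of 14.2, 15.6 and 10.9. The mean folds of both were up to 17.2, and neither was among the 8 members named for the highest mean fold. Lower in the same set were Arhgap28 (chr17:67989021-67989220), with a fold of 11.4 ± 3.73, and Plac1 (chrX:53161154-53161353) with 11.2 ± 4.28. The Plac1 match lay in repeat-masked sequence. The lowest of those named was Nt5c3b (chr11:100428701-100428900), with 9.91 ± 1.28.

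To ask how the strength of ERβ signal varied with motif content, the median log2 fold over input was compared between classes of sites in each replicate. Fold over input was part of the site rule, so these levels are a description and were not tested. Members had medians of 2.57, 2.91 and 2.86 in replicates 1, 2 and 3, and sites without AP-1 had 2.53, 2.85 and 2.83. Members were higher by 0.045 ± 0.019 (SD, n = 3) on the log2 scale. The difference was 0.055 with ChIP replicate 1 over Input replicate 1 and 0.020 with ChIP replicates 2 and 3 over Input replicate 2. It turned negative under 4 settings, among them without Input replicate 1 (-0.0044) and at a fold of 8 (-0.036), so its direction is not settled.

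Members with an ERE had a median log2 fold of 2.85 ± 0.21, and sites with an ERE but no AP-1 had 2.80 ± 0.18. Members without an ERE had 2.62 ± 0.16, and sites with neither motif 2.59 ± 0.16. Among members, those with an ERE were higher by 0.17, 0.27 and 0.24 in replicates 1, 2 and 3 (0.23 ± 0.048). With an ERE, AP-1 sites differed from other sites by 0.05 ± 0.038, and without an ERE by 0.03 ± 0.016. By the median of the mean fold of each site, the pair without an ERE had the opposite order, 5.88 with AP-1 and 5.99 with neither motif, while with an ERE the medians were 7.18 with AP-1 and 6.93 without. Median signal without an ERE was 3.68, 4.64 and 4.04 in replicates 1, 2 and 3 with AP-1 and 3.52, 4.35 and 4.11 with neither, so it was lower with AP-1 in replicate 3. Where the ERE was perfect the 27 members were higher than the 257 other sites by 0.13 ± 0.076. With 1 mismatch the difference was -0.0014 ± 0.068, with opposite signs between replicates. With 2 mismatches, in 89 members and 1405 other sites, it was 0.020 ± 0.041, with replicate 2 negative (-0.0089).

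**Figure D3:**
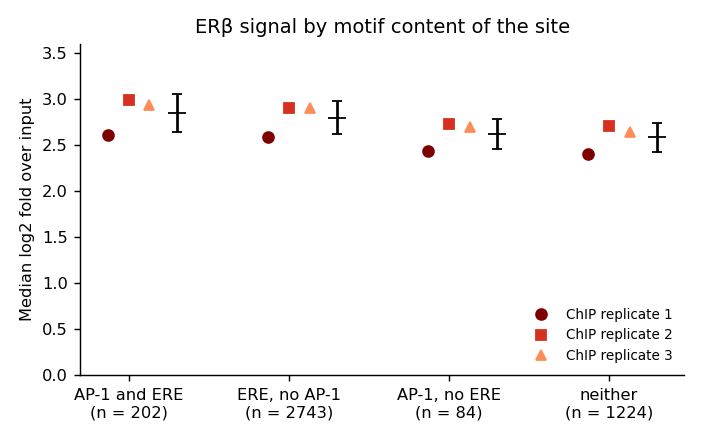
Median log2 fold of ERβ ChIP over input (vertical axis) for 4 classes of sites by motif content, with 1 symbol per ChIP replicate and the mean ± SD of 3 replicates in black. Classes with an ERE sit at 2.85 and 2.80 and classes without at 2.62 and 2.59, and on this scale the class with AP-1 is higher by 0.05 or 0.03 within either pair, an order that the median of the mean fold did not keep without an ERE.

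Mean folds of members ran from 3.35 to 33.1 with a median of 7.01, against 6.62 in the other sites. A mean fold of at least 16 was reached by 28 members (9.79%) and by 8.85% of the other sites. Members called in all 3 replicates were 200 of 286 (69.9%), against 68.7% of all 4253 sites, so the share was near the background. At members called in both other replicates, the remaining replicate was over 4-fold in 202 of 259 (78.0%), 199 of 208 (95.7%) and 202 of 219 (92.2%) cases for replicates 1, 2 and 3. Its summit entered the site centre where it also called the site, so it was not fully held out. Over all sites the shares were 78.3%, 95.2% and 91.6%. The median folds of the remaining replicate were 6.15, 9.27 and 8.57 in members and 6.03, 8.45 and 8.001 in other sites. At the lower end of the rule, the members with the smallest mean fold were Clybl (chr14:122196941-122197140) with folds of 1.15, 4.60 and 4.31 and Vcpip1 (chr1:9755716-9755915) with 3.91, 4.11 and 2.43. Just outside, called in 1 replicate only, the highest were near Kcnc2 with folds of 4.17, 4.58 and 7.62 and near Robo2 with 3.36, 8.35 and 4.64. At Kcnc2 the signal was under the height minimum of 2 in replicates 1 and 2, and at Robo2 in replicates 1 and 3.

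The placement of AP-1 around all 4253 sites was then followed outward. AP-1 matches numbered 0.414 per kb within 25 bp of the centre, 0.395 from 25 to 50 bp, 0.310 from 50 to 100 bp and 0.214 from 100 to 200 bp, against 0.180 from 500 to 1000 bp. This was a 2.29-fold, 2.19-fold, 1.72-fold and 1.19-fold excess over the distant flank. These AP-1 counts include matches that share letters with an ERE, which were not counted apart here. EREs numbered 10.4 per kb within 25 bp against 0.447 in the flank, a 23.2-fold excess, which fell to 9.10-fold at 25 to 50 bp and 2.59-fold at 50 to 100 bp. Words of the GATA factors (AGATAA or TGATAA) had a low and broad excess like that of AP-1, 1.63-fold within 25 bp and 2.07-fold at 25 to 50 bp. NR5A words (TCAAGGTCA, CCAAGGTCA), which contain the half-site letters GGTCA, had 10.3-fold and 9.62-fold.

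**Figure D4:**
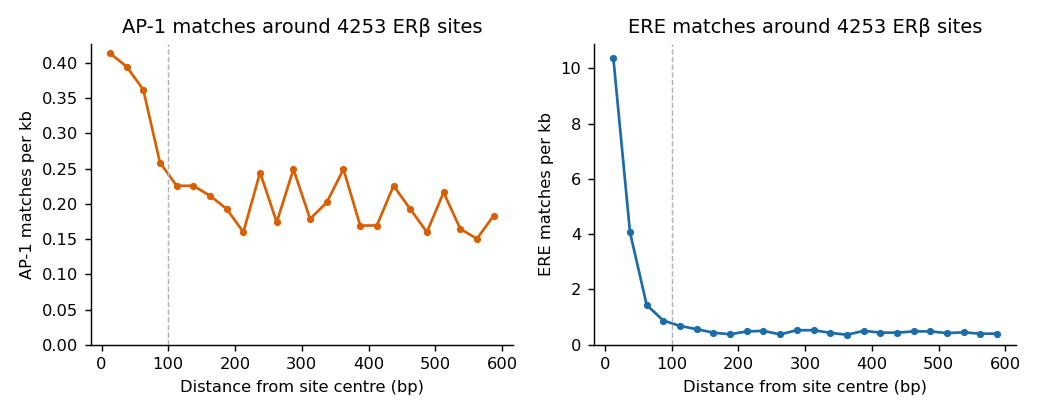
Matches per kb (vertical axes, on different scales) by distance in bp from the site centre, for AP-1 (left) and ERE (right) over all 4253 sites, in 25-bp rings. The dashed line marks the edge of the 200-bp window. AP-1 starts at 0.414 per kb and stays above its flank across the window, whereas ERE starts at 10.4 and falls to 0.875 by 75 to 100 bp. AP-1 matches that share letters with an ERE are included.

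Among all 8192 words of 7 bases, with both strands counted as 1, the AP-1 word ranked at place 443 by its share in sites over its share in windows of the same length 300 to 900 bp away. It was in 6.72% of sites and 3.49% of flank windows, a ratio of 1.92, where the median word had 0.97 and the first, AGGTCAC, 6.27. Genome-wide, 3.11% of 12796535 windows of 200 bp without unknown bases held AP-1, and 6.68% held an ERE. An ERE was present in 202 members (70.6%, 70.5 ± 0.84% over replicates) and in 69.1% of other sites. A perfect ERE was present in 27 members (9.44%) and in 6.48% of other sites, and 1 mismatch was the best in 30.1% and 27.2%.

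Signal at AP-1 words was also read without reference to the site calls. Over 414187 AP-1 matches of the genome, the mean 200-bp signal relative to each library's genome mean was 1.08, 1.09 and 1.09 in ChIP replicates 1, 2 and 3 and 1.11 and 1.09 in Inputs 1 and 2. ChIP was not above input (exact permutation test, one-sided p = 0.8, n = 3 and 2). Over 2340 perfect EREs the values were 2.96, 3.49 and 3.73 in ChIP and 1.25 and 1.19 in input, and all ChIP values were higher. The exact one-sided p was 0.1, the smallest that 3 against 2 libraries allow. Over 65291 EREs with 1 mismatch they were 1.31, 1.43 and 1.48 in ChIP and 1.07 and 1.06 in input (exact permutation test, one-sided p = 0.1).

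Inside the 2 sets of track names, ChIP over input was 0.97 and 1.004 for AP-1, and 2.37 and 3.04 for the perfect ERE. Away from sites, at over 1 kb from any site of any replicate, AP-1 matches stood at 1.07 in ChIP and 1.10 in input, and perfect EREs at 1.53 ± 0.073 in ChIP and 1.15 ± 0.014 in input. EREs with 1 mismatch stood there at 1.046, 1.09 and 1.12 in ChIP replicates 1, 2 and 3 and 1.047 and 1.04 in Inputs 1 and 2 (exact permutation test, one-sided p = 0.2), so ChIP replicate 1 was not above Input replicate 1. Sites held 0.071% of the AP-1 matches, 12.1% of perfect EREs and 1.88% of EREs with 1 mismatch. Signal inside sites therefore adds little to the AP-1 mean, and the AP-1 test cannot show whether signal rises there. The mean is over matches in open and closed chromatin alike.

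**Figure D5:**
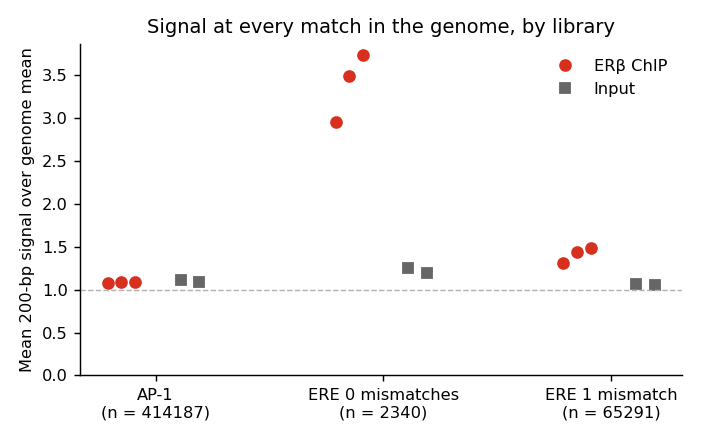
Mean 200-bp signal relative to the genome mean of the same library (vertical axis, dashed line at 1) over every AP-1 match, perfect ERE and 1-mismatch ERE of the genome, 1 point per library. ChIP and input points coincide near 1.1 at AP-1 and separate at EREs, with ChIP from 2.96 to 3.73 at perfect EREs. Sites held 0.071% of the AP-1 matches and 12.1% of perfect EREs, so the AP-1 mean cannot show whether signal rises in sites.

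Other transcription factor words were counted in the same 200 bp, on both strands and without mismatch. GGAATG, the word of the TEAD factors of the Hippo pathway, was in 60 members (21.0%) and in 12.96% of other sites, and 10.8% of genome windows held it. The members were higher by 7.86 ± 0.74 percentage points over the 3 replicates. NR5A words, bound by the steroidogenic factors SF-1 and LRH-1, were in 31 members (10.8%) and 7.03% of other sites, and 0.693% of genome windows held one. GATA words were in 92 members (32.2%) against 28.9%, with 24.1% in the genome. The RUNX word TGTGGTT was in 19 members (6.64%) against 4.84%, with 4.71% in the genome. The FOXO word TGTTTAC was less frequent in members, 10 (3.497%) against 5.07%, with 2.98% in the genome.

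The half-site word AGGTCA was in 59.1% of members and in 59.1% of other sites, with 11.1% in the genome. In the 84 members without an ERE it was in 40 (47.6%), and in 49.8% of other sites without one. CRE (TGACGTCA), the word of CREB and ATF dimers, was in 1 member and 2 other sites, with 0.108% in the genome, and C/EBP words (TTGCGCAA, TTGCACAA, TTGCATAA, TTGTGCAA, TTGTGTAA) in 3 members and 57 other sites, with 2.44% in the genome. CRE and AP-1 share the letters TGAC, and the NR5A words contain AGGTCA. The 9 comparisons rest on site lists that the replicates largely share, so no test was made on them. Bases beside the AP-1 word were close to those of all genome matches. On the strand TGAGTCA, a purine preceded it in 39.2% of members and 43.9% of 419224 genome matches, and a pyrimidine followed in 46.5% and 50.8%.

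Most members lay in introns or between genes, and few lay in exons. Locations were not tested. In introns lay 138 members (48.3%), 55 of them in intron 1 (39.9%), and 108 were intergenic (37.8%). The other sites had 46.3% in introns and 33.2% between genes. Promoters, from 1 kb upstream to 100 bp downstream of a start, held 20 members (6.99 ± 0.60% SD over replicates) and 10.01 ± 0.46% of other sites. Coding exons held 1 member and 81 other sites (2.04%), and UTRs no member and 50 other sites (1.26%). The median distance to the nearest protein-coding start was 28620.5 bp for members and 23668 bp for other sites. GC content had a median of 50% and 50.5%. The window was over 50% repeat-masked in 9.09% of members and 5.32% of other sites, and the AP-1 match itself was masked in 27 members.

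The nearest protein-coding genes of the members were 278, of 2923 genes nearest to any site (9.51%). Those 2923 were 13.5% of 21681 protein-coding genes. Of 20 genes of the AP-1 subunits and their relatives, 9 (45%) were nearest to a site, among them Jun, Jund, Fos and Fosl2, and 1 of the 9, Fosl2, had a site with AP-1. Fosl2 encodes the Fos family protein Fra-2. Its site (chr5:32035666-32035865) lay 100.03 kb upstream, inside intron 10 of 11 of Babam2, and held the composite printed above. Signal was 1.60, 2.59 and 3.01 in ChIP replicates 1, 2 and 3 and 0.528 and 0.525 in the inputs, with folds of 3.04, 4.92 and 5.72, and replicate 1 did not call it. Of 18 textbook AP-1 targets, 3 (16.7%) were nearest to a site (Plau, Vegfa and Myc). Only Myc had one with AP-1, 727 kb downstream of its start in intron 2 of 3 of the gene model Gm41333 (chr15:62714401-62714600). Signal there was 6.01, 7.97 and 5.83 in ChIP replicates 1, 2 and 3 and 0.644 and 0.401 in the inputs, with folds of 11.5, 15.2 and 11.2.

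Of 40 ovary genes, 20 (50%) were nearest to a site and 2 of them, Greb1 and Fshr, to a site with AP-1. Fshr encodes the receptor of follicle-stimulating hormone on granulosa cells. Its member (chr17:89144858-89145057) lay in intron 1 of 9, 55.7 kb downstream of the start, with no ERE and the AP-1 match 15.5 bp from the centre. Signal was 3.92, 6.24 and 3.23 in ChIP replicates 1, 2 and 3 and 0.750 and 0.480 in the inputs, with folds of 6.37, 10.2 and 5.25, and replicate 2 was the highest. More than 1 member was nearest to 8 genes, among them Kcnma1, a potassium channel gene, and Zeb2, a zinc finger repressor gene. The nearest gene is a label of position, and the tracks hold no expression.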

How the data were processed

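ERβ ChIP-seq and input libraries of mouse ovary were used, grouped by the sample titles. Per the study's methods and processing notes, the authors aligned reads with STAR to GRCm38 (mm10), without spliced alignment and with unique reads only, and worked with HOMER. The deposited tracks hold signal (coverage), scaled by the authors so that each library has about the same total. Duplicate handling is not given in the sources used here. Depth cannot be read from averaged values, and no counting interval was computed.

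Site calls used the mean signal in 200-bp windows at 10-bp steps on the autosomes and chromosome X. A maximum had to reach a signal of 2, exceed 4 times the mean of both inputs (set to at least their genome mean, 0.368) and exceed 4 times the mean of its own 10 kb. Summits within 200 bp were merged, the centre being the mean of the summits, and sites in at least 2 replicates were kept. Motifs were read from GRCm38.p6 on both strands, and ties went to the match nearest the centre. Positions of genes came from GENCODE vM21. At genome matches, windows over 10 times the input mean were left out. Replicate values were compared with an exact paired permutation test (sign flips) or an exact permutation test over libraries. Alternatives changed the height, fold, replicates, inputs, windows and motif rules. The members and gene lists were chosen with earlier results of these data known. Named sites were, by mean fold over input, the 8 highest in all 3 replicates, the 6 highest with an overlap, the 6 highest without an ERE and with AP-1 within 25 bp, the 6 highest with an ERE of at most 1 mismatch at least 20 bp from AP-1, those near listed genes, and the lowest 2 with their nearest failures. A site that this rule names is not reported here. Calls were tested on simulated data. No pair of ChIP libraries had the same signal at any site. Per the study's methods the replicates were biological, each a pool of ovaries from several mice, so the SDs and p-values measure the spread between pools. The test planned for fold over input is not printed, since the site rule used that value. Python 3.11.15, NumPy 2.4.6, pandas 2.3.3, SciPy 1.17.1 and matplotlib 3.10.9 were used.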

Additional observations from a re-analysis of the deposited data

How the results depend on the processing

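The ERE stayed nearer the summit than AP-1 under all 17 alternatives run, by 8.83 bp (AP-1 searched in 100 bp) to 47.7 bp (400 bp), by 18.3 bp with at most 1 mismatch and by 23.2 bp with ties at the farthest match. At a distance of at least 20 bp between motifs, an alternative added after seeing the data, the ERE was nearer by 35.3 bp. The 2 search windows limit AP-1 distances by construction. Leaving out a library gave 22.0 to 23.5 bp. With the summit at the highest signal of the track it was 21.4 ± 5.27 bp, from 18.25 to 27.5 bp over the replicates.

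The log2 fold of members over other sites, 0.045, became -0.036 at a fold of 8 over input, -0.027 with AP-1 searched in 400 bp and -0.017 against sites with an ERE only, and ranged from -0.0044 to 0.087 without 1 library; the cause was not tested. It was 0.031 with inputs of the same set of track names, also added later. The replicate block, ChIP replicates 1 and 2 each over the input of the same number, gave 0.049. The numbers do not pair the samples by the labels, and the ChIP and input differences correlated at 0.035 across 4253 sites.

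The number of members was 113 at a fold of 8, 158 with 100 bp and 440 with 400 bp searched, and 207 to 310 without 1 library. Their share of sites was 6.81% at a height of 1.5, 7.15% at a fold of 8, 6.85% in all 3 replicates, 3.72% with 100 bp, 10.3% with 400 bp and 5.93% without overlapping matches, and 6.72% to 6.95% without 1 library. The share of members with an ERE was 71.7% and 71.5% at heights of 3 and 1.5, 75.2% at a fold of 8, 73.4% with 100 bp, 66.7% without overlapping matches and 39.5% with at most 1 mismatch, and 67.4% to 72.8% without 1 library. The exact permutation tests cannot give p under 0.25 for 3 pairs or under 0.1 for 3 against 2 libraries.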
